A study of Mus musculus with 2 samples.

Results

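Scavenger receptors are surface and lysosomal membrane proteins that bind modified lipoproteins, bacteria, dying cells and other polyanionic ligands, and they are sorted into classes by their structure. In macrophages and dendritic cells (DC) they serve uptake, lipid handling and the clearance of debris, and several of them are also used as markers of macrophages. DC take up antigen in their immature state and turn to its presentation to T cells when they mature, so the receptors of uptake are of interest in that switch. The genes described here are 9 receptors of this kind: Msr1 and Marco of class A, Cd36, Scarb1 and Scarb2 of class B, Cd68 of class D, Olr1 of class E, Stab1 of class H and Cd163 of class I. They were chosen by name and found by their Entrez Gene numbers among 18090 genes in the files, and all 9 had reads in both libraries.

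RNA of DC grown from the bone marrow of C57BL/6 mice was sequenced in 1 library of mature and 1 library of immature cells. Both cultures grew for 6 days with IL-4 (1 ng/ml) and GM-CSF (10 ng/ml). The mature cells, read here as the protocol's second sample, further had lipopolysaccharide (LPS, a bacterial cell wall component) (100 ng/ml) for 24 h in the same factors. Cells of both kinds were sorted on CD86 and I-Ab, with gates that the labels do not give. The labels also do not say how many mice were used, or whether the immature cells stayed in culture for the extra time. GM-CSF cultures of marrow are known to hold macrophage-like cells beside DC. The mature library held 8.07 M and the immature library 7.56 M reads assigned to genes, and in each a listed gene had a median of 82 reads. With 1 library of each state there is no replicate error and no test. The ratios below compare these libraries, and the intervals in parentheses are exact 95% intervals that cover counting error only.

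The nearest upstream sequence was read from the RefSeq promoter table (GRCm38.p6), which matched 7 of the 9 genes. Msr1 and Scarb1 were not matched. The 250 bases before the start are shown for Scarb2 and Olr1, the genes with the highest ratios of mature to immature RPKM (reads scaled to the length of the gene model and to the depth of the library), and for Cd68, the most abundant of the 9 in both libraries. The capitals mark matches, on either strand, to GAGGAA, the core of sites of the myeloid factor PU.1, to TGANTCA, the site of AP-1, and to the consensus of NF-kB.
Scarb2, chr5:92505658-92505907, minus strand: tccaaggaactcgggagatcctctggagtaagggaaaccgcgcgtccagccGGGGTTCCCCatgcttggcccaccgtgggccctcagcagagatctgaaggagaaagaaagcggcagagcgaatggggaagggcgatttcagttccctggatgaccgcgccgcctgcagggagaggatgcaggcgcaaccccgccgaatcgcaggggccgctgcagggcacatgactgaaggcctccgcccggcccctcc
Olr1, chr6:129507166-129507415, minus strand: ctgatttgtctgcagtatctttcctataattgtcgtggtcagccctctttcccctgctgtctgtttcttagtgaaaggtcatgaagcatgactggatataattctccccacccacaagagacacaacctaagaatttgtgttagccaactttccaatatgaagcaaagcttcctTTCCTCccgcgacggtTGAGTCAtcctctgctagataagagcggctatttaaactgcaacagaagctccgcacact
Cd68, chr11:69666171-69666420, minus strand: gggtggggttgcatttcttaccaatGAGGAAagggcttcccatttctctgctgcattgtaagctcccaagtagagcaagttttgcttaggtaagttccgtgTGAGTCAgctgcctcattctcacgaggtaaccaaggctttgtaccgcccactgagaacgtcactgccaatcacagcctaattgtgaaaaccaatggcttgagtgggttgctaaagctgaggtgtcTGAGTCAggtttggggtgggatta

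Olr1 and Cd68, which differed in opposite directions between the libraries, both held GAGGAA and TGANTCA in these windows. In Olr1 they began 76 and 60 bases before the start. In Cd68 GAGGAA began 225 bases before it, and TGANTCA was found at 149 and at 24 bases. GAGGAA was found in 4 of the 7 matched genes (Cd68, Marco, Olr1 and Stab1) and in 23.3% of 32851 windows of this length, and TGANTCA in 2 of 7 and in 6.75%. The NF-kB consensus was found in Scarb2 alone of the 7, 199 bases before the start, and in 7.25% of all windows. The Scarb2 window was also the richest of the 7 in G and C, at 65.6% against a median of 52.4% over all windows. The C/EBP site TTGCNNAA was found in 1 of 7 (Cd68) and in 9.56% of all windows. The GC box, GGGCGG, was found in 3 of 7 (Cd36, Cd68 and Scarb2) and in 32.7%. The E-box of letters CACGTG was found in 0 of 7 and in 6.02% of all windows. The last motif searched, the TATA box with letters TATAAA, was found in 0 of 7 and in 12.4%. No match in the 7 windows overlapped another. These are matches of letters, and no binding was measured here. Any link between these matches and the direction of a gene's difference was not tested.

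The 9 genes did not move together. Scarb2, Olr1 and Cd36 were higher in the mature library, Msr1, Scarb1, Cd68 and Stab1 were lower, Marco differed by less than counting error, and Cd163 was barely detected. A difference of at least 2-fold on the scale of log2(RPKM + 1) was looked for where either library reached 1 RPKM. It was found in 1 of 8 compared receptors towards higher (Scarb2; 12.5%, against 9.05% of 11547 genes compared). It was found in 1 of 8 towards lower (Msr1; 12.5%, against 11.3% of all). These shares are near those of all genes. With a pseudocount of 0.1 RPKM in place of 1 RPKM Olr1 and Scarb1 also passed 2-fold, so that 2 of 8 were higher (25%, against 12.9% of all genes at that pseudocount) and 2 of 8 lower (25%, against 14.4%). The counting interval lay wholly above a ratio of 1 for 3 of the 8 (37.5%, against 36.1% of all genes) and wholly below it for 4 (50%, against 33.8%). Whether an interval holds 1 depends on the number of reads. Each of the 8 had at least 332 reads in each library, beside 82 for the median listed gene. These interval shares are therefore not matched for depth. The median log2 fold of the 8 was -0.31, beside 0.026 for all genes compared, and 1 of the 8 (Marco) lay between the quartiles of all genes, -0.49 and 0.50. That median of the 8 falls in the gap between Stab1 (-0.75) and Marco (0.13), so it is not the value of a typical member.

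**Figure D1:**
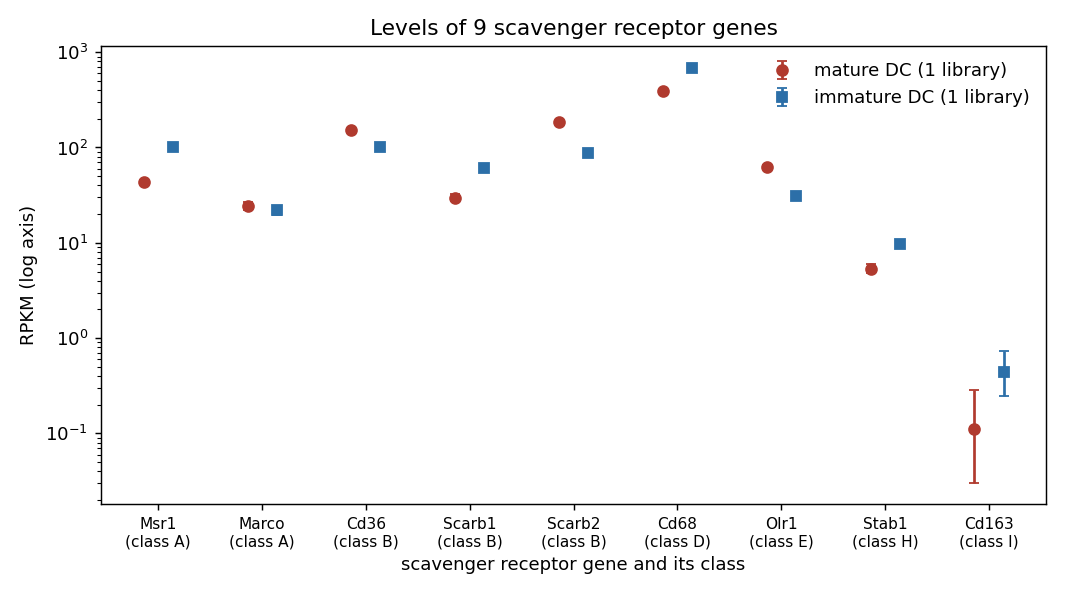
RPKM (log axis) of the 9 scavenger receptor genes in the mature library (circles, left of each pair) and the immature library (squares), with exact 95% Poisson intervals of the reads, which are smaller than the symbol for most genes. Cd68 stood highest in both libraries and Cd163 lowest, and the levels of Cd36, Scarb2 and Olr1 were higher in the mature library.

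Class A receptors are trimers with a collagen-like stalk that bind polyanions, among them acetylated lipoprotein and bacterial surfaces. Msr1, the class A receptor first known for the uptake of modified lipoprotein, had 1276 reads (43.4 RPKM) in the mature and 2758 reads (100.1 RPKM) in the immature library. It was 2.31-fold lower in the mature library (2.16 to 2.47), an interval wholly beyond 2-fold, and 8.32% of all genes compared had a lower log2 fold. Marco, a class A receptor for bacteria and particles, had 388 reads (24.2 RPKM) in the mature and 332 reads (22.1 RPKM) in the immature library, a ratio of 1.09 (0.943 to 1.27) whose interval holds 1. The class thus split: Marco stood at 0.558 times the RPKM of Msr1 in the mature library and at 0.221 times in the immature library. That relative shift of 2.53-fold (2.14 to 2.98) does not depend on how the libraries are scaled, because it uses only the reads of these genes.

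The class B receptors share a large extracellular loop held between a pair of membrane spans. Scarb2 (LIMP-2), a lysosomal membrane protein that carries the enzyme beta-glucocerebrosidase to lysosomes, had 3150 reads (185 RPKM) in the mature and 1383 reads (86.7 RPKM) in the immature library. The ratio was 2.13 (2.00 to 2.27), and 7.60% of all genes compared had a higher log2 fold. Cd36, which takes up oxidized lipoprotein and long-chain fatty acids and works with Toll-like receptors, had 4374 reads (152 RPKM) in the mature and 2698 reads (100.03 RPKM) in the immature library. It was 1.52-fold higher (1.45 to 1.59), short of 2-fold. Scarb1 (SR-BI), the receptor of high density lipoprotein that mediates the exchange of cholesterol with it, went the other way, with 606 reads (29.9 RPKM) in the mature and 1152 reads (60.6 RPKM) in the immature library. It was 2.03-fold lower (1.84 to 2.24), and its log2 fold of -0.997 on the scale with a pseudocount lay just inside the 2-fold limit.

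Within class B the differences between genes were larger than counting error. The level of Scarb2 was 6.19 times that of Scarb1 in the mature library and 1.43 times in the immature library, a relative shift of 4.33-fold (3.85 to 4.88). Cd36 stood at 5.08 times the Scarb1 level in the mature and 1.65 times in the immature library, a shift of 3.08-fold (2.76 to 3.44). Scarb2 and Cd36 also exchanged their order: Scarb2 stood at 1.22 times the Cd36 level (1.16 to 1.27) in the mature library and Cd36 at 1.15 times the Scarb2 level (1.08 to 1.23) in the immature library.

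Cd68 (macrosialin), a heavily glycosylated protein of late endosomes and lysosomes of phagocytes, had 3189 reads (392 RPKM) in the mature and 5218 reads (684 RPKM) in the immature library. It was 1.75-fold lower (1.67 to 1.83) and still the most abundant of the 9 per length, ranked 119 by RPKM among all genes of the mature library and 70 in the immature library. Olr1 (LOX-1), a C-type lectin-like receptor of oxidized lipoprotein, had 1797 reads (62.2 RPKM) in the mature and 835 reads (30.8 RPKM) in the immature library. The Olr1 ratio of 2.02 (1.86 to 2.19) became a log2 fold of 0.99 with the pseudocount, just inside the limit, and 9.20% of all genes compared had a higher one. Its rank rose to 1142 in the mature library, against 2558 in the immature library.

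Stab1 (stabilin-1), a very large endocytic receptor of macrophages and sinusoidal endothelium that clears the matrix protein SPARC and modified lipoprotein, was low. It had 345 reads (5.34 RPKM) in the mature and 585 reads (9.67 RPKM) in the immature library and was 1.81-fold lower (1.58 to 2.07). Its close relative Stab2, of the same class, had 0 reads in the mature library and 1 in the immature library. Cd163, the macrophage receptor that clears haptoglobin-haemoglobin complexes, had 4 reads (0.110 RPKM) in the mature and 15 reads (0.441 RPKM) in the immature library. With reads over 1.22% of its length in the mature and 8.79% in the immature library, Cd163 was under the minimum of 1 RPKM and was not compared. The ratio of its reads, 4.003-fold lower in the mature library, has an interval from 1.28 to 16.6.

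**Figure D2:**
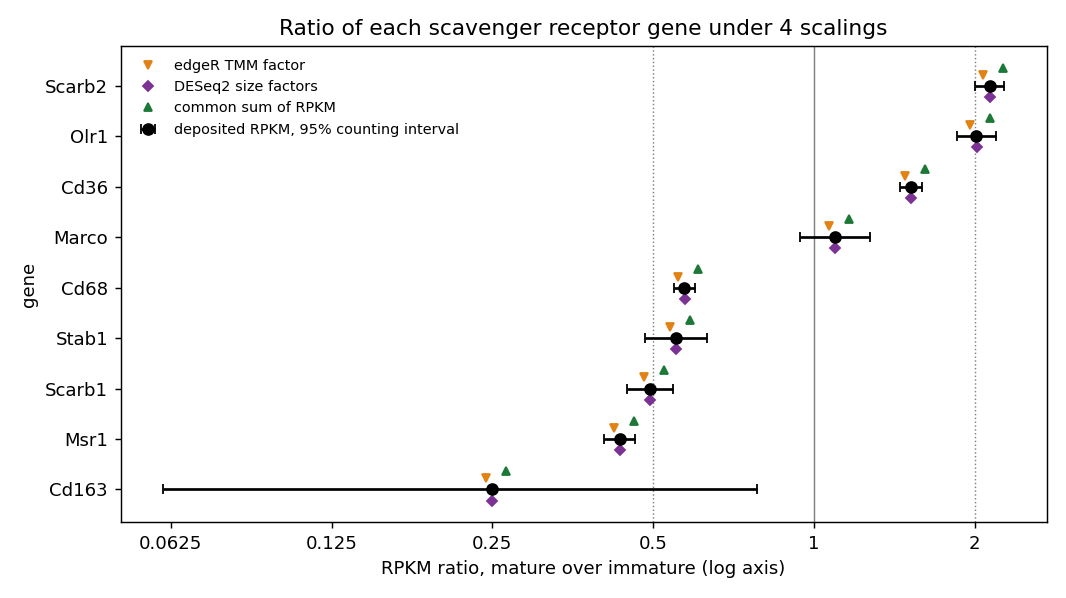
Ratio of mature to immature RPKM (log axis) for each gene, with the deposited RPKM as black circles and exact 95% counting intervals, and the same ratio under 3 other scalings of the libraries as coloured symbols. Dotted lines mark 2-fold. No gene changed its side of 1 under any of the 4 scalings, and Olr1, Scarb1 and Scarb2 lay close to a 2-fold line.

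Both the make-up and the total of this receptor family differed between the libraries. The 9 genes together had 894 RPKM in the mature and 1095 RPKM in the immature library. Their summed reads, which do not account for length, were 15129 (0.187% of all counted reads) in the mature and 14976 (0.198%) in the immature library. Cd68 accounted for 43.8% of the summed RPKM in the mature library and 62.5% in the immature library. Scarb2 made up 20.7% in the mature and 7.91% in the immature library, Cd36 17.0% in the mature and 9.14% in the immature library, and Olr1 6.95% in the mature and 2.82% in the immature library. Msr1 made up 4.85% in the mature library and 9.14% in the immature library. Without Cd68 the direction of the sum turned, with 502 RPKM in the mature and 410 RPKM in the immature library.

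**Figure D3:**
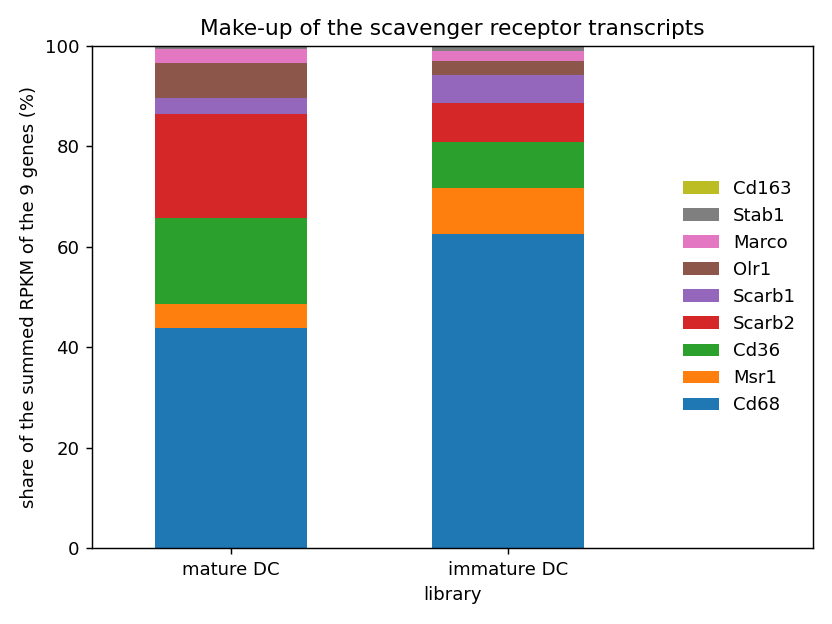
Share of the summed RPKM of the 9 genes that each gene held (%), in the mature library (left bar) and the immature library (right bar). Cd68 is the largest share in both, at 43.8% in the mature and 62.5% in the immature library, and Scarb2, Cd36 and Olr1 hold larger shares in the mature library.

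By level, the order in the mature library was Cd68, Scarb2, Cd36, Olr1, Msr1, Scarb1, Marco, Stab1 and Cd163. In the immature library it was Cd68, Msr1, Cd36, Scarb2, Scarb1, Olr1, Marco, Stab1 and Cd163. All neighbours in these orders differed beyond counting error except Msr1 and Cd36 in the immature library, at 100.1 and 100.03 RPKM. In the mature library Cd36 stood at 3.50 times the level of Msr1. Of the 36 pairs of the 9 genes, the change of 1 level relative to the other lay beyond counting error in 29. The remaining 7 were the pair of the genes with the highest ratios, Scarb2 and Olr1 (1.06, 0.953 to 1.18), the pairs Cd68 and Stab1 (1.04, 0.899 to 1.20) and Stab1 and Scarb1 (1.12, 0.947 to 1.33), and 4 pairs with Cd163, in which its few reads limit the precision. The other pairs with Cd163 are among the 29. The share was not computed for pairs of other genes, so 29 of 36 is not shown to be particular to these receptors. For single genes, the counting interval lay wholly above 1 in 36.1% and wholly below 1 in 33.8% of all genes compared.

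Levels of different genes depend on the length of the gene model. The deposited models were shorter than the union of exons in the GENCODE M21 annotation (GRCm38) for 7 of the 9 genes. The gap was widest for Scarb1 (2512 against 8500 bases), Scarb2 (2110 against 6285 bases) and Msr1 (3643 against 6344 bases). It was smaller for Cd68 (1008 against 1257 bases), Stab1 (7995 against 10288 bases), Cd163 (4492 against 5461 bases) and Cd36 (3566 against 3590 bases). For Marco (1985 against 1925 bases) and Olr1 (3581 against 3572 bases) the deposited model was the longer one. The order of levels, the summed RPKM and the shares of it hold for the deposited models. The ratios between the libraries used the same model in both. No exon of another gene overlapped the exons of 8 of the 9 genes. For Stab1, 112 bases (1.09%) overlapped Nt5dc2 on the other strand, and strandedness is not given in the sources used here. The share of the model covered by reads was 76.9% in the mature and 83.4% in the immature library for Cd36, whose reads were more numerous in the mature library. It was 70.0% in the mature and 80.4% in the immature library for Stab1, and from 82.6% to 99.5% for the 6 other genes besides Cd163.

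Other genes of the scavenger receptor classes were listed to place the 9. Of 22, 17 had reads in a library and 8 reached 1 RPKM. Of these 8, 1 was at least 2-fold higher (against 9.05% of all genes compared) and 1 was lower (against 11.3%). The other 6 lay within 2-fold, and the median log2 fold of the 8 was 0.35. Without the minimum of 1 RPKM that median came to 0.023, and a pseudocount raised to 5 RPKM gave 0.21. Cxcl16, a chemokine with a membrane-bound form that binds oxidized lipoprotein (class G), had 6743 reads (341 RPKM) in the mature and 903 reads (48.8 RPKM) in the immature library, 6.996-fold higher (6.53 to 7.51). Lgals3bp, a secreted protein with the cysteine-rich domain of Marco and Cd163, had 224 RPKM in the mature and 133 RPKM in the immature library, and Lrp1, a large receptor of lipoproteins and proteases, 61.1 RPKM in the mature and 53.2 RPKM in the immature library. Cd44, the hyaluronan receptor, had 82.1 RPKM in the mature and 120.01 RPKM in the immature library. These 3 lay within 2-fold.

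**Figure D4:**
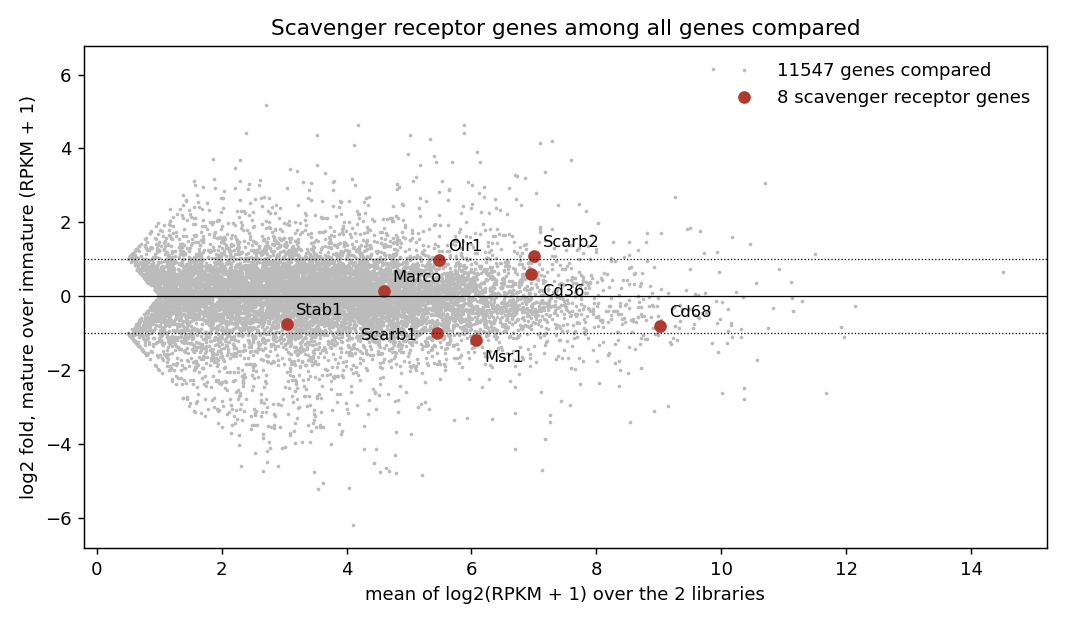
Log2 fold of mature over immature (RPKM + 1) against the mean of log2(RPKM + 1) of the 2 libraries, for 11547 genes compared (grey) and the 8 compared scavenger receptor genes (red). Dotted lines mark 2-fold, and the 8 genes lie near or within them, between -1.19 for Msr1 and 1.08 for Scarb2.

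Genes that act with these receptors were taken from 6 further lists. Together with the list above they held 70 compared genes, of which 10 passed 2-fold towards higher (14.3%, against 9.05% of all genes) and 7 towards lower (10%, against 11.3%). The lists were chosen with earlier results of these data known, so these shares are a description and not a test of an excess. Lipid uptake and handling genes, downstream of Cd36, Scarb1 and Olr1, were higher in 4 of 17, lower in 1 and within 2-fold in 12 (median 0.071). Abca1, which exports cholesterol, stood at 38.3 RPKM in the mature and 7.36 RPKM in the immature library, Npc2, the lysosomal cholesterol carrier, at 432 RPKM in the mature and 136 RPKM in the immature library, and Fabp4, a fatty acid carrier, at 47.4 RPKM in the mature and 16.8 RPKM in the immature library. Fabp4 was 2.82-fold higher (2.19 to 3.67). The lower gene, Apoe, which is named after its value was seen, had 37 reads in the mature and 80 in the immature library.

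Transcription factors known to act on scavenger receptor genes were higher in 0 of 9, lower in 2 and within 2-fold in 7 (median -0.45). Over all genes compared, 9.05% were higher and 11.3% lower. Spi1, which encodes PU.1, had 1293 reads (120.1 RPKM) in the mature and 2805 reads (278 RPKM) in the immature library, 2.32-fold lower (2.17 to 2.48). Pparg, the nuclear receptor that acts on Cd36, had 64 reads (4.27 RPKM) in the mature and 242 reads (17.2 RPKM) in the immature library, 4.04-fold lower (3.05 to 5.40). Cd36 itself was higher, and any link between the levels of these genes was not tested. Among signalling partners 2 of 16 were higher, 2 lower and 12 within 2-fold (median -0.12). The kinase Src had 21.3 RPKM in the mature and 9.25 RPKM in the immature library. Fyn, one of the kinases that transmit the Cd36 signal, was 2.17-fold higher (1.93 to 2.44). Tlr2, which can act with Cd36 on bacterial lipids, had 15.9 RPKM in the mature and 84.6 RPKM in the immature library.

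Lysosomal membrane partners of Cd68 and Scarb2 lay within 2-fold in 7 of 7 (median -0.030), in the libraries where Scarb2 was higher and Cd68 lower. The shares over all genes compared, 9.05% higher and 11.3% lower, stand beside the counts of this and the next lists. Among genes of haemoglobin and haem clearance, the pathway of Cd163, 1 of 9 was higher, 1 lower and 7 within 2-fold (median -0.073). The 9 include Tnfsf12, which encodes a ligand of the TNF superfamily (19.0 RPKM in the mature and 28.5 RPKM in the immature library). The count and median are thus not of haem clearance genes alone. Hmox1, which breaks down haem, had 1318 RPKM in the mature and 373 RPKM in the immature library. Hp, which encodes haptoglobin, which binds free haemoglobin into the complex that Cd163 takes up, had 368 reads (33.4 RPKM) in the mature and 3199 reads (310 RPKM) in the immature library, 9.28-fold lower (8.33 to 10.4). Of stabilin partners 2 of 5 were higher, 0 lower and 3 within 2-fold (median 0.097). These were Gga3 at 24.1 RPKM in the mature and 8.72 RPKM in the immature library and Gga2 at 26.5 RPKM in the mature and 9.97 RPKM in the immature library. Both encode adaptors of the transport between the Golgi and endosomes.

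**Figure D5:**
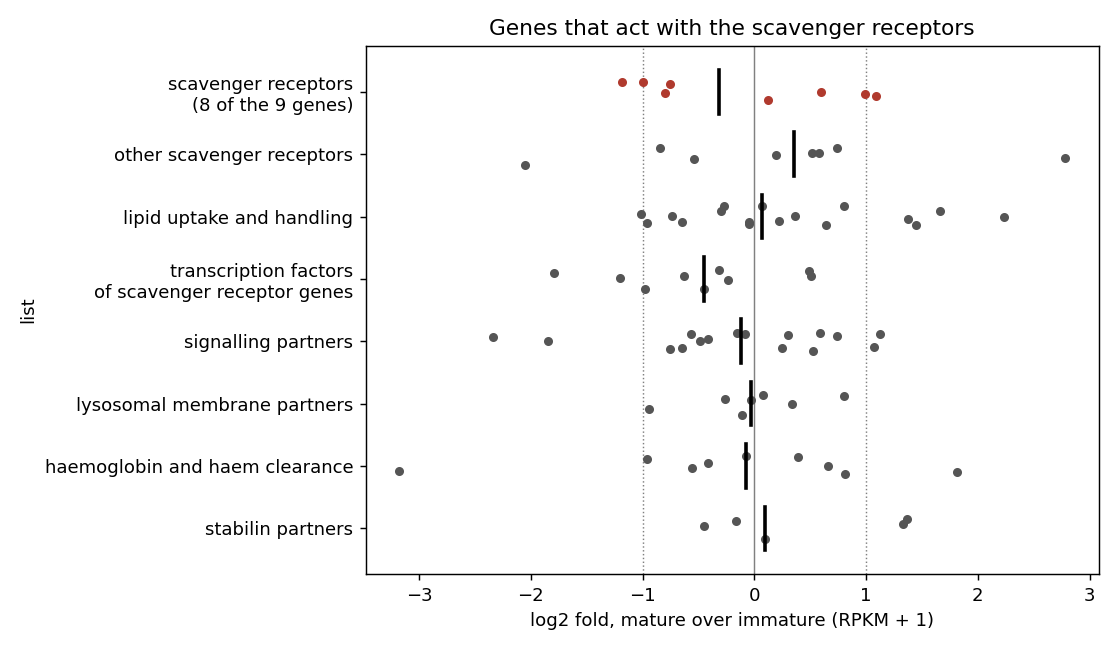
Log2 fold of mature over immature (RPKM + 1) of each compared gene (points) by list, with the median of the list (vertical bar), for the 8 compared scavenger receptor genes (red) and 7 lists of related genes (grey). Vertical position within a list carries no value, and dotted lines mark 2-fold. The 7 lysosomal membrane partners lie within 2-fold, and the transcription factors have no gene beyond 2-fold on the higher side.

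The libraries were checked for the labelled cell type and for other cells, since scavenger receptors are shared with macrophages. The DC markers Itgax (148 RPKM in the mature and 407 RPKM in the immature library), Zbtb46 (13.2 RPKM in the mature and 4.51 RPKM in the immature library) and H2-Ab1 (978 RPKM in the mature and 1256 RPKM in the immature library) were present in both. H2-Ab1 encodes a chain of I-Ab, on which the cells were sorted. Of the DC markers, 4 of 11 were at least 2-fold higher and 2 lower, with a summed level of 6375 RPKM in the mature and 8156 RPKM in the immature library. For all genes compared the shares were 9.05% higher and 11.3% lower. Of macrophage markers, 5 of 9 compared were lower and 0 higher, with a summed level of 284 RPKM in the mature and 505 RPKM in the immature library. Adgre1 (F4/80) stood at 114 RPKM in the mature and 86.2 RPKM in the immature library, Mertk at 5.14 RPKM in the mature and 11.6 RPKM in the immature library, and Fcgr1 at 8.04 RPKM in the mature and 31.7 RPKM in the immature library. C1qa had 4 reads in the mature and 85 reads in the immature library, and Vsig4 was listed in neither file.

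Of 4 compared monocyte markers 3 were lower and 0 higher (against 11.3% and 9.05% of all genes compared). The summed level of the list was 27.5 RPKM in the mature and 218 RPKM in the immature library, with Ly6c2 at 11.5 RPKM in the mature and 16.8 RPKM in the immature library and Ccr2 at 3.93 RPKM in the mature and 124 RPKM in the immature library. Among the 3 was Cd177 (5.48 RPKM in the mature and 49.3 RPKM in the immature library), also a neutrophil marker, so the count and sum are not of monocyte genes alone. Reads covered 15.4% of the Ly6c2 model in the mature and 15.5% in the immature library. Its level thus rests on a small part of the model and may be understated. Of 10 neutrophil markers 9 were lower and 0 higher (sum 1624 RPKM in the mature and 7788 RPKM in the immature library), with Elane at 3.64 RPKM in the mature and 80.3 RPKM in the immature library, Ngp at 113 RPKM in the mature and 1204 RPKM in the immature library and Camp at 3.52 RPKM in the mature and 103 RPKM in the immature library. The part of such cells in the lower levels of Msr1, Scarb1, Cd68, Stab1 and Hp was not tested. In bulk RNA, fewer cells of a type and less RNA per cell cannot be told apart. Of 3 compared endothelial markers 1 was higher (Kdr, at 5.17 RPKM in the mature and 1.43 RPKM in the immature library) and 2 were lower, with a summed level of 25.7 RPKM in the mature and 45.9 RPKM in the immature library. Cdh5 had 4 reads in the mature and 6 in the immature library, and Emcn was listed in neither file. No stromal marker reached 1 RPKM (sum 1.18 RPKM in the mature and 1.95 RPKM in the immature library), with Col1a1 at 13 reads in the mature and 22 in the immature library and Pdgfra at 1 reads in the mature and 0 reads in the immature library. Of 4 compared erythroid and platelet markers 0 were higher and 1 was lower (sum 137 RPKM in the mature and 93.7 RPKM in the immature library); Pf4 stood at 117 RPKM in the mature and 71.2 RPKM in the immature library. The 1 compared lymphocyte marker lay within 2-fold, and the 6 together had 2.57 RPKM in the mature and 2.94 RPKM in the immature library, with Cd3e at 8 reads in the mature and 6 reads in the immature library and Cd79a at 3 reads in the mature and 7 reads in the immature library.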

How the data were processed

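Each deposited file gives, per the file headers, the count of uniquely placed reads of each gene, the length of its model, the percent of that length covered, and RPKM, which the authors computed from those counts and lengths (checked here to a relative deviation of 1.07e-07). Per the submitters' processing notes the build was mm8. Aligner, counter, strand setting and annotation: not given in the sources used here. Unique counting can lose reads in genes with close copies. Names came from RefSeq (GRCm38.p6) for 16220 of 18090 IDs.

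With 1 library per state no test was possible. Ratios are of deposited RPKM. Intervals are Clopper-Pearson for ratios, Poisson for levels and conditional exact for pairs of genes, and cover counting error only, as each state has 1 library. The reads carry no molecular identifiers, so copies of the same molecule are counted as separate reads and the intervals may be too narrow. Folds on the log2 scale have a pseudocount of 1 RPKM, which understates low genes, and need 1 RPKM in a library. Named were the 9 genes, up to 3 higher and 3 lower of each related list that reached 10 RPKM, other scavenger receptors at 10 RPKM, and defining markers; some genes that this rule names are not reported here. The steps were checked on simulated Poisson counts, which hold counting error only, as the intervals do. That checks the computation and not the spread between real libraries. The members and lists were chosen with earlier results of these data known. Alternatives were 3 scalings (edgeR 4.0.16 TMM, DESeq2 1.42.0 size factors, a common sum of RPKM), pseudocounts of 0.1 and 5 RPKM, no filter or 5 RPKM, coverage of 50% (related lists only), and an interval wholly beyond 2-fold. Python 3.11.15 with scipy 1.17.1 was used.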

Additional observations from a re-analysis of the deposited data

How the results depend on the processing

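Of 27 ratios of the 9 genes under 3 other scalings, 25 stayed within their counting interval, 0 changed direction and 2 left the interval, both with a common sum of RPKM: Cd36 at 1.61 in place of 1.52 and Cd68 at 0.608 in place of 0.573. The number of receptors at least 2-fold higher was 2 in place of 1, with Olr1 added, for a common sum of RPKM, a pseudocount of 0.1 RPKM and the plain RPKM ratio, the last of these chosen after seeing the data. The number at least 2-fold lower was 2 in place of 1, with Scarb1 added, for the TMM factor, a pseudocount of 0.1 RPKM and the plain ratio. Both genes lie so near 2-fold that a scaling factor of 1.06 (common sum) or 0.974 (TMM) moves them across it. Each number stayed at 1 under the other settings run for it. The coverage minimum was run for the related lists only. Of all genes compared, 9.05% were higher and 11.3% lower at a pseudocount of 1 RPKM, and 12.9% and 14.4% at 0.1 RPKM. The share over all genes was not computed at the other settings, so the counts there have no share to be set beside. Counts over the related lists ranged from 8 to 10 higher and from 5 to 9 lower. The sign of the median turned for signalling partners with a filter at 5 RPKM, for lysosomal membrane partners with a common sum of RPKM, and for haemoglobin and haem clearance with a common sum and without a filter, all of them medians near 0. No paired analysis was possible because each state has 1 library, and no library could be left out for the same reason. Among the 9 genes, depth limits Cd163 most, with 4 reads in the mature and 15 in the immature library.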

Other observations

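Among the other scavenger receptor genes at low levels, which are named here after their values were seen, Cd6, a receptor of T cells with the cysteine-rich domain of Marco and Cd163, had 13 reads in the mature and 123 reads in the immature library, 10.1-fold lower (5.69 to 19.5). The T cell gene Cd3e had 8 reads in the mature and 6 in the immature library. Scarf1, a class F receptor, had 180 reads (7.73 RPKM) in the mature and 106 reads (4.86 RPKM) in the immature library, and Colec12, a collagen-like receptor related to class A, had 80 reads (2.98 RPKM) in the mature and 45 reads (1.79 RPKM) in the immature library. Both lay within 2-fold. Ager, the receptor of glycated proteins, had 11 reads in the mature and 27 reads in the immature library.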
